A study of Mus musculus with 6 samples.

Results

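The renin-angiotensin system of the mouse ovary was examined in 9 genes that were chosen by symbol from the 33036 features of the deposited expression table. They are Agt, Ren1, Ace, Agtr1a, Agtr2, Atp6ap2, Enpep, Anpep and Lnpep, and all 9 were found and passed the filter on low values. The samples were whole ovaries of female C57BL/6J mice, 3 libraries from mice kept at the pressure of Lanzhou, labelled 1500 m (83.56 kPa, oxygen at 17.8 kPa), and 3 libraries from mice kept under hypobaric hypoxia, labelled 6500 m (43.12 kPa, oxygen at 8.1 kPa). The series text gives an age of 8 weeks, 15 mice in each group and 15 days of exposure, whereas the sample descriptions give 6 to 8 weeks, 15, 16 and 17 days for replicates 1, 2 and 3, and 5000 m for the hypoxia samples. Light is labelled as 12 hours for every sample. Dark is labelled as 12, 13 and 14 hours for normal-pressure replicates 1, 2 and 3, and as 12 hours for each hypoxia sample. Per the labels, cycles in both groups were synchronised by oral levonorgestrel and ethinylestradiol, with doses (0.1 and 0.02 mg/kg) given for the hypoxia samples only. The doses of the normal-pressure group are not labelled, so a difference in dose could not be told apart from hypoxia. How many mice stand behind a library is not labelled, so p-values measure only the spread among the 3 libraries of a group, part of which may be technical. Hypoxia replicate 3 was nearer to the normal-pressure libraries than the other 2 hypoxia libraries were, with Pearson r of log2(TPM + 1) across genes of 0.975 to 0.977 against 0.958 to 0.963.

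Angiotensinogen, the product of Agt, is the only known precursor of the angiotensins. Renin cuts angiotensin I from it, angiotensin-converting enzyme trims this to angiotensin II, and aminopeptidases A and N then shorten angiotensin II to angiotensin III and angiotensin IV. Angiotensin II acts through the type 1 and type 2 receptors. Besides the circulating system that starts in the kidney, the ovary holds a local one: in humans, theca cells release prorenin and follicular fluid is rich in it, and in rats the type 2 receptor is found on granulosa cells of atretic follicles.

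Of the 9 genes, Ren1 fell and Enpep rose under hypobaric hypoxia, and the other 7 did not pass the test. Ren1 fell from 5.35 ± 0.711 to 1.03 ± 0.484 TPM (SD, n = 3 per group), so the mean under normal pressure was 5.17 times the mean under hypoxia. Enpep, which encodes aminopeptidase A, rose from 10.2 ± 1.68 to 13.9 ± 0.798 TPM, a ratio of means of 1.36. The precursor gene Agt, the converting enzyme gene Ace and both angiotensin receptor genes were not called. Values are in TPM, a level of transcript abundance that is corrected for transcript length and scaled to a fixed total in each library. The test was limma on log2(TPM + 1) over all 17120 features with at least 1 TPM in at least 3 libraries, with Benjamini-Hochberg adjusted two-sided p-values called at 0.05. In that test 18.3% of all features were called, 11.1% higher and 7.20% lower, so 2 calls among 9 genes is close to the background share. Higher genes were 60.7% of all calls on the deposited scale and 46.7% after median-ratio scaling. The groups did not overlap for 3 of the 9 genes, Ren1, Enpep and Lnpep, against 39.2% of all tested features. The median log2 fold change was -0.050 over the 9 genes and 0.083 over all tested features. Since these are whole ovaries, fewer cells of a type and less RNA per cell cannot be told apart.

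The upstream sequences of Ren1 and Enpep are shown because these are the 2 genes that passed the test. Each is the 250 bases before the RefSeq start in GRCm38.p6, 5′ to 3′ on the gene's own strand, with motif matches in capitals. They are chr1:133350424-133350673 on the + strand for Ren1 and chr3:129332750-129332999 on the - strand for Enpep.
Ren1: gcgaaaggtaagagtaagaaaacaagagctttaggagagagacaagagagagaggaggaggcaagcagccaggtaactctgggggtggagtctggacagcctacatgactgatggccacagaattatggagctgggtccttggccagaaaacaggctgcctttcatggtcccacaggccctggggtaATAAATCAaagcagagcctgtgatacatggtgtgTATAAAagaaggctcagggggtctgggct
Enpep: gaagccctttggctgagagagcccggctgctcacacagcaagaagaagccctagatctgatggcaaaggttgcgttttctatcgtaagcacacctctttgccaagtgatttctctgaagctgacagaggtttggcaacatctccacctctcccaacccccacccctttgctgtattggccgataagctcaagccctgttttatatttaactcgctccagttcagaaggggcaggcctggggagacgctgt
In windows from 250 bases before to 50 bases after the start, 5 short motifs were searched, on both strands except the TATA box, which was searched on the gene's own strand. The Ren1 window held the TATA box letters TATAAA from base -29, counting the start as 1 and the base before it as -1. These letters occur in 8.32% of the 32851 RefSeq mouse promoter windows of this length. The Ren1 window also held, on the opposite strand, the letters TGATTTAT at base -63, which occur in 0.977% of windows and resemble the composite site of the PBX and HOX homeodomain factors. The hypoxia-inducible factor core, ACGTG or GCGTG, was not in the Ren1 or Enpep window and is in 43.8% of all windows. Neither window held the NR5A half-site AAGGTCA (4.72% of windows) or the cyclic AMP response element TGACGTCA (1.79%). The Enpep window held no match to any of the motifs. Among the other members, Agt also had TATAAA, from base -30, and the windows of Anpep, Lnpep and Atp6ap2 each held 1 match to the hypoxia-inducible factor core. RefSeq windows were matched for 8 of the 9 genes, with 2 windows for Ace. The windows held 1 CG pair for Ren1 and for Agt, 5 for Agtr2, 7 for Enpep, 24 for Atp6ap2, 28 for Anpep and 30 for Lnpep, and 29 and 2 in the windows of Ace, against a median of 7 over all windows. A match describes the letters of the window and not a bound site.

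**Figure D1:**
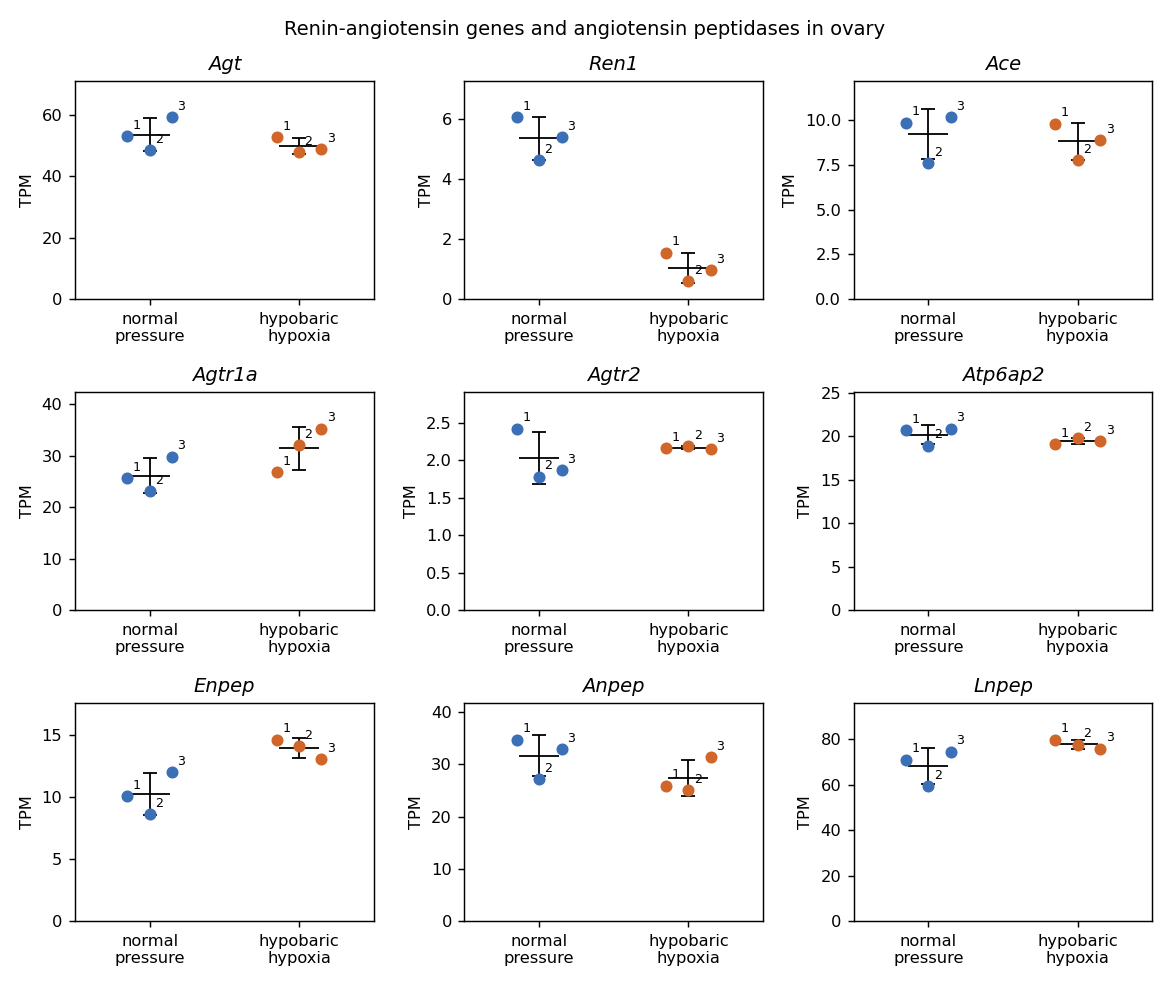
TPM of the 9 genes in each library (vertical axis, from 0; numbers beside points are replicate numbers), with the mean and SD of 3 libraries per group as a black line and bars. Ren1 lay between 4.62 and 6.04 TPM under normal pressure and between 0.59 and 1.55 TPM under hypobaric hypoxia, and the groups also did not overlap for Enpep and Lnpep.

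Positions of the genes are given in GRCm38.p6. Agt (chromosome 8, 124556587 to 124569706, - strand) measured 53.0, 48.5 and 59.2 TPM in normal-pressure replicates 1 to 3 and 52.8, 47.8 and 48.8 TPM in hypoxia replicates 1 to 3. The groups overlapped, and the log2 fold change was -0.10 (SE 0.11, 95% interval -0.33 to 0.13, limma adjusted p = 0.57). Agt was the second most abundant of the 9 transcripts, and its level ranked 1660 among the 17120 tested features.

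Ren1 (chromosome 1, 133350674 to 133360320, + strand) encodes renin, the protease whose cut of angiotensinogen sets the pace of the cascade in blood. Its level was 6.04, 4.62 and 5.38 TPM under normal pressure and 1.55, 0.59 and 0.96 TPM under hypoxia (replicates 1 to 3, here and in what follows). Every hypoxia library lay below every normal-pressure library, with the lowest value in hypoxia replicate 2. The log2 fold change of TPM + 1 was -1.66 (SE 0.17, 95% interval -2.01 to -1.31, limma adjusted p = 9.8e-06). At levels this near to the pseudocount that scale understates the change, and with a pseudocount of 0.1 the log2 fold change was -2.35. Only 75 of the 17120 tested features, Ren1 included, had a log2 fold change as low. The fall passed in all 15 alternatives in which Ren1 was tested, with a log2 fold change of -1.65 without hypoxia replicate 3, and with a minimum of 5 TPM it did not reach the filter. Hypoxia replicates 2 and 3 were below the filter of 1 TPM, which the 3 normal-pressure libraries met by themselves. Without hypoxia replicate 1, Ren1 thus entered the test only through the group where it was higher. Ren2, the duplicate renin gene that other mouse strains carry and C57BL/6 mice lack, was not among the features analysed here.

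Because Ren1 fell while Agt changed little, the transcript level of the precursor relative to that of renin differed between the groups. The Agt to Ren1 ratio of TPM was 8.78, 10.5 and 10.99 in the normal-pressure libraries and 34.1, 81.0 and 50.8 in the hypoxia libraries. The Ren1 to Ace ratio was 0.613, 0.607 and 0.530 under normal pressure and 0.158, 0.0759 and 0.108 under hypoxia. The groups did not overlap for either ratio, which follows from the Ren1 values, and these ratios carry no test of their own.

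Ace (chromosome 11, 105967948 to 105989964, + strand) encodes the angiotensin-converting enzyme, a peptidase of endothelial surfaces. It measured 9.86, 7.61 and 10.2 TPM under normal pressure and 9.80, 7.77 and 8.87 TPM under hypoxia. The ranges were nearly the same, and the log2 fold change was -0.052 (SE 0.13, 95% interval -0.33 to 0.23, limma adjusted p = 0.81). The exons of Ace share 295 bases with an antisense gene, Gm11651, in the GENCODE M21 annotation of GRCm38, and no source used here states whether reads were counted by strand. The exons of the other 8 genes shared no base with another annotated gene. Of 12 endothelial markers 2 rose (Cldn5 and Vwf) and none fell, which is near the background of 18.3% called. The call of Cldn5 was lost in 6 of 16 alternatives, among them leaving out normal-pressure replicate 1 or any 1 hypoxia library. The summed level of the 12 was 180 to 220 TPM under normal pressure and 225 to 232 TPM under hypoxia.

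Agtr1a (chromosome 13, 30336356 to 30382867, + strand) encodes the type 1a angiotensin II receptor, which drives vasoconstriction. It measured 25.6, 23.1 and 29.8 TPM under normal pressure and 26.9, 32.1 and 35.3 TPM under hypoxia. Hypoxia replicate 1 lay within the normal-pressure range, so the groups overlapped. The log2 fold change was 0.25 (SE 0.13, 95% interval -0.01 to 0.52, limma adjusted p = 0.18).

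Agtr2 (chromosome X, 21484624 to 21488833, + strand) encodes the type 2 receptor, which opposes many actions of the type 1 receptor. It measured 2.42, 1.78 and 1.87 TPM under normal pressure and 2.16, 2.19 and 2.15 TPM under hypoxia. Its mean over the 6 libraries was the lowest of the 9 genes, but Ren1 was lower in the 3 hypoxia libraries. The hypoxia values lay inside the normal-pressure range, and the log2 fold change was 0.073 (SE 0.14, 95% interval -0.21 to 0.36, limma adjusted p = 0.75). Type 1a receptor transcripts outnumbered type 2 transcripts per length in every library, by 10.6 to 15.9 times under normal pressure and 12.4 to 16.4 times under hypoxia.

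Atp6ap2 (chromosome X, 12587759 to 12617051, + strand) encodes the prorenin receptor, which is also an accessory subunit of the V-ATPase proton pump. It measured 20.7, 18.9 and 20.9 TPM under normal pressure and 19.1, 19.8 and 19.5 TPM under hypoxia. The hypoxia values again lay inside the normal-pressure range, with a log2 fold change of -0.050 (SE 0.11, 95% interval -0.27 to 0.17, limma adjusted p = 0.78). Of 18 other V-ATPase subunit and assembly genes, 2 fell and none rose, with a median log2 fold change of -0.19. Among all tested features the shares were 7.20% lower and 11.1% higher. Atp6v1h fell from 31.8 ± 4.77 to 22.3 ± 1.43 TPM and Atp6v1e1 from 62.6 ± 9.18 to 44.2 ± 2.56 TPM (limma adjusted p = 0.011 and 0.010). Both encode subunits of the cytoplasmic part of the pump. The most abundant genes of the list were not called, namely Atp6v0c (165 ± 20.2 and 148 ± 7.61 TPM), Atp6v1f (93.2 ± 9.89 and 82.0 ± 2.79 TPM) and Atp6v0b (73.4 ± 7.02 and 78.1 ± 2.96 TPM). The count of falls was 13 with quantile normalization, 14 with median-ratio scaling, 14 with scaling to the protein-coding total, 12 when normal-pressure replicate 2 was left out, 9 without that library and hypoxia replicate 3, and 0 with no filter. Falls over all features moved in the same direction, from 1233 to 2772, 3152, 2534, 2143, 1786 and 546 in the same order. Atp6ap2 did not pass in any of these.

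**Figure D2:**
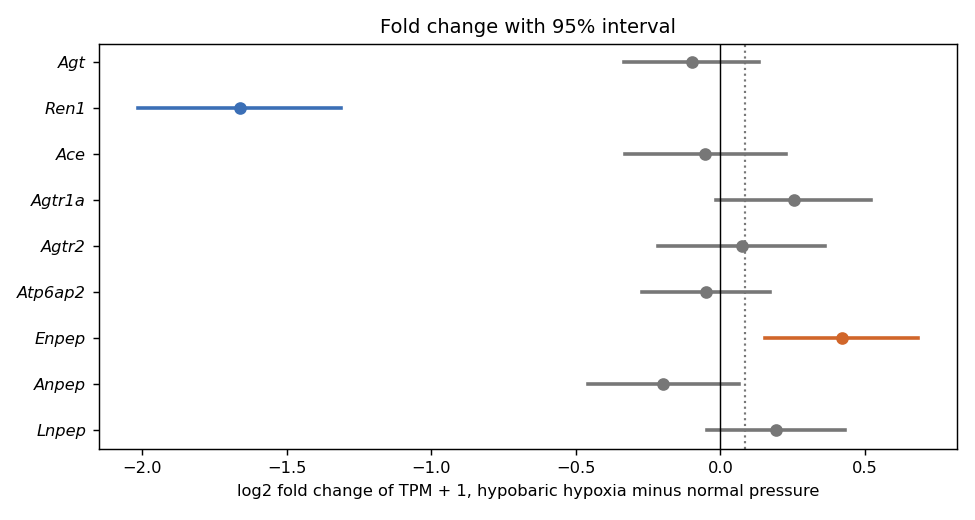
Log2 fold change of TPM + 1, hypobaric hypoxia minus normal pressure, for each of the 9 genes (points) with its 95% interval from limma (lines), blue for a fall and orange for a rise that passed and grey otherwise. The dotted line is the median of all tested features, 0.083, and the interval of Ren1, -2.01 to -1.31, lies apart from the intervals of the other 8 genes.

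The 3 membrane aminopeptidases belong to the M1 zinc metallopeptidase family, and 1 of them, Enpep, passed the test. Enpep (chromosome 3, 129269177 to 129332749, - strand) encodes aminopeptidase A, which takes the N-terminal aspartate off angiotensin II. It measured 10.1, 8.61 and 12.0 TPM under normal pressure and 14.6, 14.1 and 13.0 TPM under hypoxia, so every hypoxia library lay above every normal-pressure library. The log2 fold change was 0.42 (SE 0.13, 95% interval 0.15 to 0.68, limma adjusted p = 0.029). The rise did not pass without hypoxia replicate 1 (adjusted p = 0.094), without hypoxia replicate 2 (0.063) or with no filter on low values (0.11), and the adjusted p ran from 0.00461 to 0.113 over the 16 alternatives. With a log2 fold change as high or higher there were 1501 tested features.

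Anpep (chromosome 7, 79821803 to 79848210, - strand) encodes aminopeptidase N, also known as CD13, which shortens angiotensin III. It measured 34.7, 27.3 and 33.0 TPM under normal pressure and 25.9, 25.1 and 31.4 TPM under hypoxia. The groups overlapped through normal-pressure replicate 2 and hypoxia replicate 3, and the log2 fold change was -0.20 (SE 0.12, 95% interval -0.46 to 0.06, limma adjusted p = 0.28). With median-ratio scaling it passed as a fall, at -0.29 (adjusted p = 0.035), and also without normal-pressure replicate 2 and hypoxia replicate 3 together, at -0.40 (adjusted p = 0.015).

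Lnpep (chromosome 17, 17527723 to 17624489, - strand) encodes the insulin-regulated aminopeptidase, also called oxytocinase, which binds angiotensin IV. It was the most abundant of the 9, at 70.9, 59.2 and 74.4 TPM under normal pressure and 79.7, 77.5 and 75.8 TPM under hypoxia. The groups did not overlap, but the gap was small, and the log2 fold change of 0.19 (SE 0.11, 95% interval -0.05 to 0.43) was not called (limma adjusted p = 0.26). It passed as a rise with quantile normalization (0.19, adjusted p = 0.0072) and with protein-coding total scaling (0.15, adjusted p = 0.014).

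The summed level of the 3 aminopeptidases was 116, 95.05 and 119 TPM under normal pressure and 120, 117 and 120 TPM under hypoxia. Within that sum, the share of Enpep was 8.71%, 9.06% and 10.0% under normal pressure and 12.2%, 12.1% and 10.9% under hypoxia. The Anpep to Enpep ratio was 3.45, 3.17 and 2.76 under normal pressure and 1.78, 1.78 and 2.40 under hypoxia, so the groups did not overlap for this ratio. Ratios within a library show unequal change and do not tell which of the transcripts moved.

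Normal-pressure replicate 2 was the lowest normal-pressure library for all 9 genes. Protein-coding genes other than Zfp949, a feature of very high TPM, held 37.3% of TPM in that library and 42.2% to 45.7% in the others. After scaling each library to that protein-coding total, replicate 2 was the lowest normal-pressure library for 3 of the 9 genes. On that scale Ren1 measured 5.92, 5.29 and 5.03 under normal pressure and 1.503, 0.580 and 0.972 under hypoxia. Enpep measured 9.88, 9.87 and 11.2 under normal pressure and 14.2, 13.8 and 13.2 under hypoxia, so the order of the groups was as in TPM for both. Lnpep was tighter, at 67.8 to 69.5 under normal pressure and 76.2 to 77.2 under hypoxia.

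By mean TPM over the 6 libraries the order was Lnpep (72.9), Agt (51.7), Anpep (29.6), Agtr1a (28.8), Atp6ap2 (19.8), Enpep (12.1), Ace (9.01), Ren1 (3.19) and Agtr2 (2.10). Each gene was above the next in 6 of 6 libraries, except at 2 places where neighbours changed order between the groups. Anpep was above Agtr1a in the 3 normal-pressure libraries and below it in the 3 hypoxia libraries, with Agtr1a to Anpep ratios of 0.736 to 0.903 and 1.03 to 1.28. Ren1 was above Agtr2 in the 3 normal-pressure libraries and below it in the 3 hypoxia libraries, with Ren1 to Agtr2 ratios of 2.50 to 2.88 and 0.269 to 0.718.

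Beyond the 9 genes, a list of 29 other genes of the system had 25 members among the features, 16 of which were tested. The list was written with earlier results of these data known, so its counts are no test of the system. Over all tested features 7.20% fell and 11.1% rose. Of the 16 tested genes 6 fell and 1 rose, with a median log2 fold change of -0.054. The rise was in Nr3c2, the mineralocorticoid receptor on which aldosterone acts, from 8.81 ± 1.52 to 14.2 ± 0.835 TPM. Its log2 fold change was 0.64 (SE 0.13, limma adjusted p = 0.0026), and it passed in all 16 alternatives. Among the falls, Agtrap, whose product promotes internalisation of the type 1 receptor, went from 16.1 ± 2.37 to 12.0 ± 0.289 TPM (limma adjusted p = 0.037). Mme, which encodes neprilysin, a peptidase that makes angiotensin 1-7 from angiotensin I, went from 10.97 ± 1.42 to 7.96 ± 0.614 TPM (adjusted p = 0.028). Dpp3, the gene of an angiotensin-degrading dipeptidyl peptidase, went from 29.3 ± 2.45 to 22.6 ± 1.47 TPM (adjusted p = 0.034). Agtrap, Mme and Dpp3 each lost their calls when normal-pressure replicate 1, normal-pressure replicate 3 or hypoxia replicate 2 was left out.

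The other 3 falls were in serine protease genes. Mcpt4 went from 2.06 ± 0.302 to 0.970 ± 0.357 TPM and Cma1 from 2.18 ± 0.329 to 1.15 ± 0.285 TPM (limma adjusted p = 0.011 and 0.015). Both encode proteases of the chymase family that mast cells store, and human chymase can make angiotensin II without the converting enzyme. The call of Cma1 was lost without normal-pressure replicate 2 or hypoxia replicate 2. All 4 tested mast cell markers fell, Cma1 and Mcpt4 among them, and the summed level of the 7 in the table was 39.5 to 49.3 TPM under normal pressure and 18.3 to 35.4 TPM under hypoxia. Most of that sum was Hdc, the histidine decarboxylase gene, at 36.2, 31.6 and 39.4 TPM under normal pressure and 28.0, 14.8 and 29.6 TPM under hypoxia. The call of Hdc was lost in 7 of 16 alternatives, among them quantile normalization, scaling to the protein-coding total, and leaving out normal-pressure replicate 2, normal-pressure replicate 3 or hypoxia replicate 2. The part of mast cells in these falls was not tested. Klk1, the gene of tissue kallikrein, which releases kinins, went from 3.32 ± 0.775 to 2.04 ± 0.393 TPM (adjusted p = 0.035), and lost its call when normal-pressure replicate 1, normal-pressure replicate 3 or hypoxia replicate 1 was left out. Chymases and kallikreins belong to families of close paralogs, so the division of reads among them is uncertain.

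The most abundant genes of that list that were not called were the lysosomal genes Ctsd (294 ± 17.4 and 295 ± 16.7 TPM) and Ctsa (67.0 ± 7.89 and 64.1 ± 1.00 TPM) and Arap1 (26.1 ± 2.19 and 28.2 ± 1.72 TPM). The remaining 9 of the 25 were too low to test, among them the second type 1 receptor gene Agtr1b, at 0.04 TPM or less in every library, and Mas1, the receptor of angiotensin 1-7, at 0.10 TPM or less. Cyp11b1, a steroid 11-beta-hydroxylase gene that was also too low to test, measured 0.86, 1.92 and 1.67 TPM under normal pressure, 0.04 TPM in hypoxia replicate 1, and is listed at 0 in hypoxia replicates 2 and 3.

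Among 19 other aminopeptidase and related peptidase genes, 17 were tested, 1 rose and 2 fell, with a median log2 fold change of 0.045. The 3 calls among 17 genes are near the background of 18.3% and describe those genes, not the list. Aopep, an M1 family gene, rose from 50.3 ± 6.82 to 65.4 ± 1.80 TPM (log2 fold change 0.38, limma adjusted p = 0.032), and its call was lost without any 1 hypoxia library. Xpnpep2, which encodes a membrane-bound aminopeptidase P, fell from 1.93 ± 0.386 to 0.510 ± 0.175 TPM, a log2 fold change of -0.96 with SE 0.15 and limma adjusted p = 0.000564. Its hypoxia values, 0.52, 0.33 and 0.68 TPM, were all below the filter of 1 TPM. Xpnpep2 thus entered the test only through the group where it was higher. It was not tested without any 1 normal-pressure library because it then missed the filter. The log2(TPM + 1) scale understates the change here, as the mean under normal pressure was 3.79 times the mean under hypoxia. Dnpep, the gene of aspartyl aminopeptidase, which like aminopeptidase A acts on N-terminal acidic residues, fell from 50.1 ± 4.27 to 39.0 ± 0.938 TPM (adjusted p = 0.033), and its call was lost without any 1 library except normal-pressure replicate 2. The most abundant of those not called were Npepl1 (41.5 ± 3.67 and 49.2 ± 1.30 TPM), Blmh (39.0 ± 4.38 and 40.7 ± 3.93 TPM) and Metap2 (36.7 ± 4.31 and 37.4 ± 1.68 TPM).

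Cell type markers are given beside the results for Ren1 and Enpep, whether or not they moved with the groups. For comparison with each count, 11.1% of all tested features rose and 7.20% fell. Of 12 luteal markers 11 fell, with a median log2 fold change of -1.92 and a summed level of 4940 to 7566 TPM under normal pressure and 2073 to 2743 TPM under hypoxia. Of 9 tested adipose markers 7 fell, with a summed level of all 10 of 355 to 455 TPM and 164 to 314 TPM. Without normal-pressure replicate 2 the calls of Adipoq, Plin1, Cidec, Retn, Fabp4 and Car3 were lost, and that of Cfd was kept. Of 12 smooth muscle and pericyte markers 3 fell (Cnn1, Des and Tagln) and Pdgfrb rose, and the sums were 727 to 796 TPM and 569 to 659 TPM. Of 12 oviduct and surface epithelium markers 4 fell (Ovgp1, Krt7, Krt8 and Krt19), with sums of 733 to 1033 TPM and 397 to 665 TPM. Ovgp1 was the largest part of each sum, at 676, 440 and 639 TPM under normal pressure and 354, 174 and 353 TPM under hypoxia. The other 8 were not called. Krt18, Pax8, Cdh1 and Epcam had log2 fold changes of -0.40, -0.34, -0.33 and -0.27. Those of Upk1b, Upk3b, Msln and Foxj1 were 0.072, 0.044, 0.080 and -0.072. Of 10 theca and interstitial markers 5 rose and Mgarp fell, with sums of 512 to 660 TPM and 565 to 610 TPM. Granulosa markers gave 3 rises and 2 falls among 12 (2296 to 2497 and 2757 to 3060 TPM), oocyte markers 11 rises among 11 tested (128 to 166 and 211 to 259 TPM) and macrophage markers 1 rise and 1 fall among 9 tested (289 to 360 and 340 to 362 TPM). No marker of these lists was at 0 in all libraries. Of defining ovarian genes, the granulosa gene Foxl2 measured 62.3 to 83.6 TPM and the oocyte gene Zp3 17.1 to 31.2 TPM over the 6 libraries. The part of cell mix in the changes of Ren1 and Enpep was not tested.

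Kidney is the main source of renin and expresses Enpep and Anpep, so kidney markers were also read, from a list added after the values were seen. In every library Slc34a1, Slc12a1, Slc12a3 and Kap were at 0.10 TPM or less, and the summed level of the 9 markers in the table was 2.81 to 3.94 TPM under normal pressure and 3.33 to 4.48 TPM under hypoxia. A second added list held 8 adrenal cortex markers, 7 of them in the table, and their summed level was 40.1 to 49.3 TPM under normal pressure and 6.63 to 12.5 TPM under hypoxia, lower in the same libraries as Ren1. Nearly all of that sum was Mrap, the gene of an accessory protein of melanocortin receptors, which is also expressed outside the adrenal gland. Mrap was the only marker of the list tested and fell from 42.1 ± 5.07 to 8.49 ± 3.22 TPM. Its log2 fold change was -2.24 (SE 0.19, limma adjusted p = 2.3e-06), and its call was kept in 16 of 16 alternatives. Cyp11b1 is on this list too, with the values given above. The defining gene Cyp21a1 was at 0.05 TPM or less in every library, and Cyp11b2 at 0.03 TPM or less. The part of adrenal tissue in the fall of Ren1 was not tested.

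**Figure D3:**
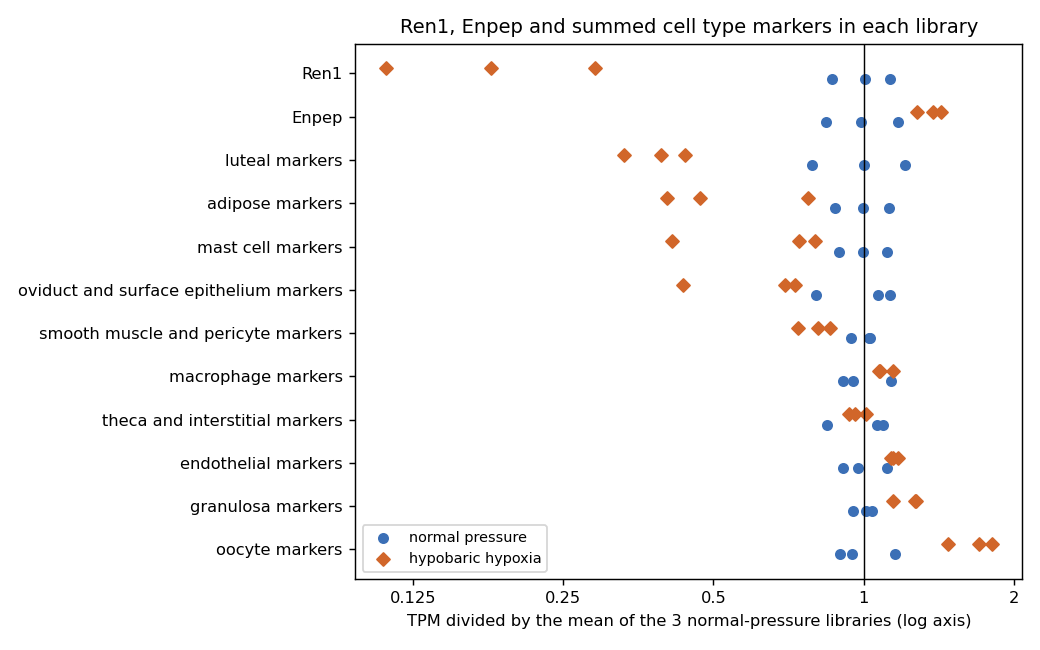
TPM of Ren1, of Enpep and of the summed markers of 10 cell type lists in each library, divided by the mean of the 3 normal-pressure libraries (log axis; blue circles, normal pressure; orange diamonds, hypobaric hypoxia). Ren1 lies furthest left in the hypoxia libraries, luteal markers fell from 4940 to 7566 TPM to 2073 to 2743 TPM, and Enpep and oocyte markers lie to the right.

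The genes whose log2(TPM + 1) followed each member most closely over the 6 libraries were read among 10654 or 10655 protein-coding features with a mean of at least 5 TPM. For Ren1 they were Mpdu1 and Usb1 (Pearson r = 0.997 and 0.995), for Enpep Tjap1 and Hsf1 (both 0.999) and for Lnpep Ankrd27 and Zfp180 (1.000 and 0.998). For Agt they were Cdc42ep4 and Dnaja3, for Ace Mn1 and Dnm2, for Agtr1a Sowahc and Itpkc, for Agtr2 D11Wsu47e, for Atp6ap2 Ppia and Pnpt1, and for Anpep Slc25a23 and Plscr3 (r = 0.954 to 0.998). Many features were nearly as close, with r of at least 0.95 for 269 features with Ren1, 1121 with Enpep and 1326 with Lnpep. These values describe 6 libraries that share a group difference and the TPM total of each library.

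**Figure D4:**
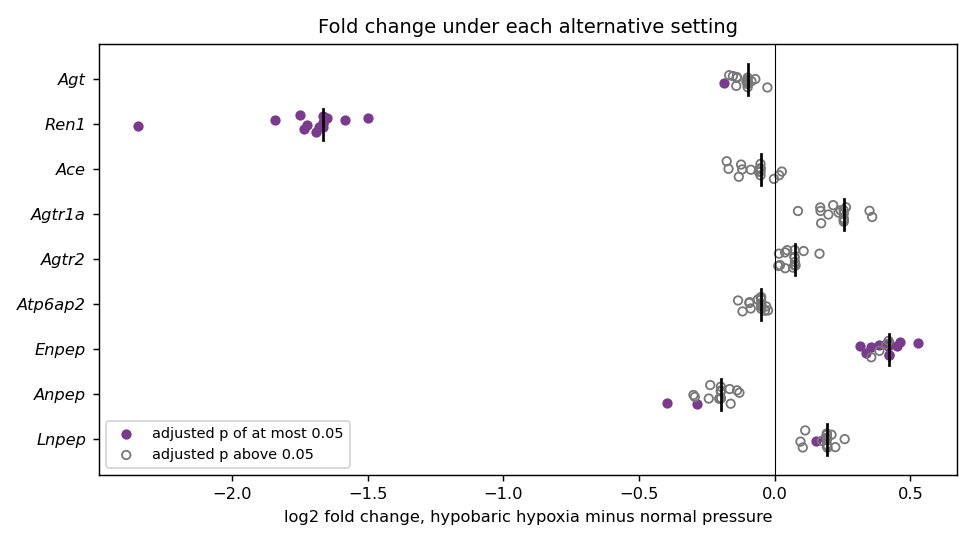
Log2 fold change of the 9 genes, hypobaric hypoxia minus normal pressure, in the reported fit (black bars) and under each alternative setting (filled points, adjusted p of at most 0.05; open points, above 0.05; vertical scatter has no meaning). Ren1 lies between -2.35 and -1.499 with every point filled, Enpep between 0.31 and 0.53 with 4 of 16 points open.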

How the data were processed

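Per the labels' protocols, ovarian RNA was purified with RNeasy columns and libraries were built with the SMARTer mRNA-Seq kit (6 samples). The submitters' processing notes name HISAT2, Bowtie2, DESeq2 and GRCm38.p6, without roles or versions. The sources used here state no counter, annotation or strand setting. TPM values, 1 column per library (sums of 998175 to 998954), are as the authors deposited them. Depth is not recoverable from TPM, so counting intervals were not computed. Features above 0 numbered 27809 to 29402.

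The 9 genes and the lists were chosen with earlier results of these data known. All 9 members are named. Of the 3 wider lists (other renin-angiotensin, aminopeptidase and V-ATPase genes), called genes and up to 3 of the most abundant not called are named, plus Agtr1b, Mas1 and Cyp11b1, chosen after their values were seen. Marker lists are given by counts and sums, with single markers also chosen after their values were seen. Results of 2 further genes are not reported here. Limma 3.58.1 with its trend option (R 4.3.3) was fitted to log2(TPM + 1), hypoxia minus normal pressure, without covariates, on 17120 features with at least 1 TPM in at least 3 libraries, and tested on simulated data. All samples carry batch 1. Alternatives were a pseudocount of 0.1, no filter, a minimum of 5 TPM, 3 scalings, protein-coding genes alone, robust variance, the replicate block, each library left out, and, added after seeing the data, 2 libraries left out together. Sequences are RefSeq windows of GRCm38.p6.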

Additional observations from a re-analysis of the deposited data

How the results depend on the processing

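Ren1 kept its fall and its call under all 15 alternatives in which it was tested (log2 fold change -2.35 to -1.499, adjusted p = 4.6e-31 to 0.0171, the lowest where limma estimated infinite prior degrees of freedom). Enpep kept its direction under all 16, but not its call under 4: no filter, leaving out hypoxia replicate 1 or 2, and leaving out both normal-pressure replicate 2 and hypoxia replicate 3 (adjusted p = 0.0556). Ace, which was never called, changed sign without normal-pressure replicate 3 (0.016) or hypoxia replicate 2 (0.026), within a range of -0.18 to 0.026 with libraries left out. Agt passed as a fall with median-ratio scaling (-0.19, adjusted p = 0.031).

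The members called numbered 2. With no filter 1 passed (0 higher), at a minimum of 5 TPM 1 passed (0 lower, since Ren1 and Agtr2 were not tested), and with median-ratio scaling 4 passed (3 lower). Quantile normalization gave 2 higher, as did scaling to the protein-coding total, and without normal-pressure replicate 2 and hypoxia replicate 3 together 0 were higher and 2 lower. Leaving out 1 library gave 1 to 2 members called, 0 to 1 higher and 1 lower. The other renin-angiotensin genes called numbered 7, against 2 with no filter, 4 at a minimum of 5 TPM and 3 to 6 with 1 library left out. The other aminopeptidases called numbered 3, against 1 with no filter, 6, 5 and 7 with quantile, median-ratio and protein-coding total scaling, and 1 to 4 with 1 library left out. The V-ATPase genes called numbered 2, against 0, 13, 14 and 14 in the same order, 2 to 12 with 1 library left out and 9 with both left out.

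All features called numbered 3139, against 1233 with no filter, 6171, 5914 and 6290 with the 3 scalings, and 2065 to 3998 with 1 library left out. Higher calls were 60.7% of these in TPM as deposited, 46.7% with median-ratio scaling and 46.4% without normal-pressure replicate 2. The cause of these shifts was not tested. The deviations of same-numbered libraries correlated at r = -0.034, 0.11 and -0.050, and not every library deviated most like its own number. With 3 libraries per group these values cannot decide whether the numbers pair the samples. With the replicate block 4117 features and 2 members were called, Ren1 at -1.66 and Enpep at 0.42. Unknown depth limits what can be said of genes near 1 TPM, Ren1 among them.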
